A study of Mus musculus with 35 samples.

Results

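The regions described here are 500 places in the genome whose ATAC-seq signal, set against the typical region of each treatment, was lower in every treatment with Forskolin than in every treatment without it. They are 500 of the 36431 regions in the study's merged ATAC-seq table, and of the 35931 that lie on chromosomes 1 to 19. They were chosen by the measured signal itself. RPKM (reads per kilobase of region, scaled to the mapped reads of the library) was taken as log2(RPKM + 1), and the median of each column over all regions was subtracted, which is called the centred scale below. The score of a region was the lowest of the 4 centred values without Forskolin minus the highest of the 3 values with it, and the 500 highest scores were kept.

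The study treated mouse embryonic fibroblasts, taken from ICR mouse embryos per its methods, with mixtures of small molecules and examined chromatin at day 4. Each letter of a treatment name is a chemical: C is CHIR99021, an inhibitor of the kinase GSK3, 6 is Repsox, an inhibitor of the TGF-beta receptor kinase ALK5, F is Forskolin, A is AM580, a retinoic acid receptor agonist, and E is EPZ004777, an inhibitor of the histone methyltransferase DOT1L. The 3 treatments with Forskolin were C6FAE, which the study calls CaMP, 6FAE and CFAE. The 4 without it were C6AE, AE, Basal and Ctr, the control. Basal and AE are not defined for this assay in the sources used here, so the pair that differs by Forskolin and nothing else is C6FAE and C6AE. The names of all 3 treatments with Forskolin also hold A and E, and those of Basal and Ctr do not. ATAC-seq had 2 libraries for each of the 7 treatments, and ChIP-seq of H3K4me3 and of H3K27me3 had 1 library per mark for each of C6FAE, 6FAE, CFAE, C6AE, AE and Basal. Further ChIP-seq samples titled as control carry C6FAE as their treatment label, and they were given no group.

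Forskolin activates adenylyl cyclase, which raises the second messenger cAMP. cAMP activates protein kinase A, which phosphorylates the transcription factor CREB. In ATAC-seq a transposase inserts sequencing adapters where DNA is not packed into nucleosomes, so that reads pile up at promoters and enhancers in use. H3K4me3 is a histone mark of promoters, and H3K27me3 is the mark that Polycomb complexes place on silenced developmental genes.

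The positions are of the build mm9, as the submitters' processing notes name it. On 10 of 21 chromosomes peaks were listed past the last gene of the gene table at hand, which does not by itself tell builds apart. That gene table is of GRCm38 and not of mm9, so the 2 were not joined. The nearest genes, motifs, sequences of the regions and fibroblast marker genes were therefore not analysed here, and the cell type was not checked against its markers.

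ATAC-seq signal at the 500 regions was lower with Forskolin in the sense of the rule. Each library with Forskolin still listed a peak at most of them, at the authors' p-value limit of 0.05. At 357 of them no library with Forskolin had a strong peak, as defined below. Over the 500 regions, median RPKM without Forskolin was 20.7 in AE, 17.2 in Basal, 14.9 in Ctr and 13.0 in C6AE. With Forskolin it was 10.1 in CFAE, 8.43 in C6FAE and 8.26 in 6FAE. Over all regions of chromosomes 1 to 19 the order ran the other way for 2 of the 3: the medians were 18.5 in CFAE, 17.7 in C6FAE and 14.3 in 6FAE, against 16.4 in AE, 12.2 in C6AE, 14.6 in Basal and 11.6 in Ctr. The 500 regions thus stood somewhat above the typical region in the treatments without Forskolin and well below it in those with Forskolin. On the centred scale their medians were 0.34 in Ctr, 0.32 in AE, 0.09 in C6AE and 0.23 in Basal, and -0.73 in 6FAE, -0.82 in CFAE and -0.99 in C6FAE. These values chose the regions and were given no test. Each column was merged from both libraries by the authors and has no replicate error.

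**Figure D1:**
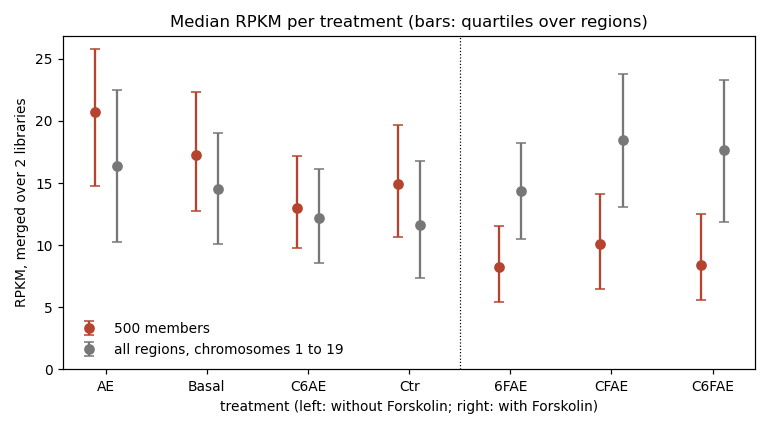
Median RPKM per treatment (vertical axis, RPKM merged over 2 libraries) for the 500 regions and for all regions of chromosomes 1 to 19, with bars from the lower to the upper quartile over regions. The 500 regions lie between 13.0 and 20.7 without Forskolin and between 8.26 and 10.1 with it, while the medians over all regions lie between 11.6 and 18.5.

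The score ran from 1.46 down to 0.26 with a median of 0.41, and 9 regions had a score of at least 1, a 2-fold gap between the lowest treatment without Forskolin and the highest with it. Those 9 regions are 0.025% of all regions, and the rule fixes this count. Of all regions, 1997 (5.56%) had a score above 0, and 2179 (6.06%) had a score above 0 under the mirrored rule, in which the lowest treatment with Forskolin is set against the highest without it. The 500 highest scores of the mirrored rule serve as a comparison below. The mean of the centred values without Forskolin minus the mean with it had a median of 1.06 over the 500 regions, with quartiles of 0.84 and 1.32, and it was -1.18 over the mirrored regions and 0.03 over all regions. Without subtraction of the column medians, all 3 treatments with Forskolin lay below all 4 without it at 282 of the 500 regions, and at 420 (1.17%) of all regions. In the mirrored direction the uncentred count was 4922 (13.7%) of all regions. For the rest of the 500 regions, the order of the columns thus holds relative to the typical region of each column and not in RPKM as deposited.

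Of the 12 pairs of columns that the rule sets against each other, the largest median difference was that of Ctr and C6FAE, 1.19 on the centred log2 scale, and the smallest that of C6AE and 6FAE, 0.72. C6FAE against C6AE had a median difference of 0.99, and C6FAE was at least 2-fold lower at 247 of the 500 regions, where 8.76% of all regions passed that limit. C6AE was the treatment that most often set the lower bound without Forskolin, at 189 regions (37.8%, against 25.3% of all regions). 6FAE most often set the upper bound with Forskolin, at 229 regions (45.8%, against 34.4% of all regions).

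**Figure D2:**
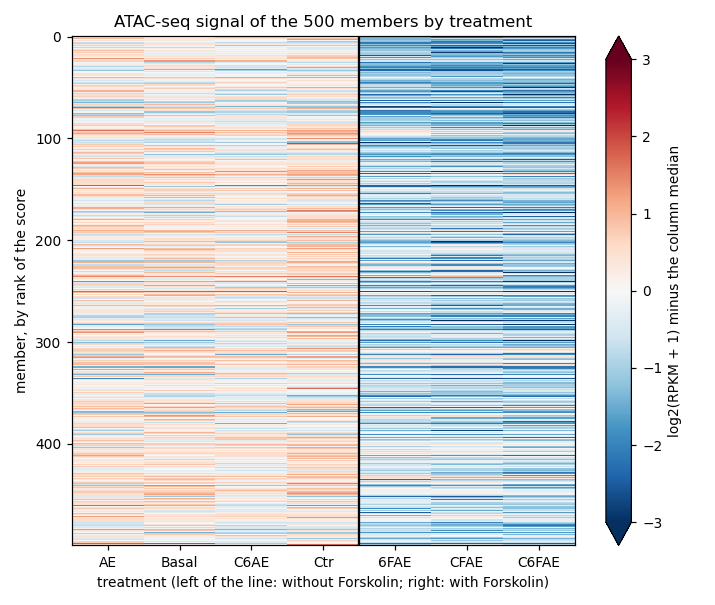
Heat map of log2(RPKM + 1) minus the column median (colour) for the 500 regions, in rows by rank of the score, and the 7 treatments in columns, with those without Forskolin left of the line. Values with Forskolin lie below those without it in every row, as the rule requires, and the absolute level and the gap vary from row to row.

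The region with the highest score was chr5:33367194-33368187, 994 bp long. Its RPKM was 14.5 in AE, 16.7 in C6AE, 15.0 in Basal and 6.26 in Ctr, and 2.21 in 6FAE, 2.99 in CFAE and 2.36 in C6FAE. The 3 treatments with Forskolin were alike and all under the control, which was itself less than the other treatments without Forskolin. MACS, the peak caller that the authors used, listed a peak there in 7 of 8 libraries without Forskolin, at fold enrichments over its background of 1.88 to 2.80, and in 1 of 6 with it, CFAE replicate 1 at 1.81.

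The next in rank, chr13:109704331-109705178, had an RPKM of 10.2 in AE, 14.1 in C6AE, 13.5 in Basal and 7.41 in Ctr, and 2.50 in 6FAE, 4.06 in CFAE and 3.57 in C6FAE. A peak was listed in 4 libraries without Forskolin and in 0 with it. At chr16:90218075-90218744 the RPKM was 23.3 in AE, 20.2 in C6AE, 15.8 in Basal and 10.4 in Ctr, and 4.81 in 6FAE, 3.1 in CFAE and 4.21 in C6FAE. This region lay 1425 bp from an H3K4me3 region without touching it.

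At chr5:116459298-116459891 the RPKM was 32.2 in AE, 17.8 in C6AE, 20.04 in Basal and 22.3 in Ctr, and 5.15 in 6FAE, 10.8 in CFAE and 11.0 in C6FAE. Here a peak was still listed in 5 of 6 libraries with Forskolin, so the signal was lower and not absent. At chr9:13436985-13438519 the control was the highest column, with an RPKM of 29.1 against 16.2 in AE, 11.2 in C6AE and 11.6 in Basal, and 5.01 in 6FAE, 5.38 in CFAE and 3.63 in C6FAE.

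The remaining regions of the 10 highest scores were chr19:44036789-44037915, chr7:90733134-90733752, chr2:170234564-170235139, chr9:85766724-85767358 and chr16:4160668-4161284, with scores of 1.00 to 1.04. Of the 10, 8 were under 1 kb and 0 overlapped an H3K4me3 region. Only chr2:170234564-170235139 overlapped an H3K27me3 region. None of the 10 had a strong peak, as defined below, in a library with Forskolin, and 6 of them had a strong peak in 1 library without Forskolin.

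At the lower end the last 3 regions inside the limit were chr17:74202679-74203541, chr8:28831776-28832831 and chr3:85288663-85289166, with scores of 0.263, 0.262 and 0.261. In the last of these the RPKM was 23.6 in AE, 12.6 in C6AE, 16.0 in Basal and 37.5 in Ctr, and 6.72 in 6FAE, 15.8 in CFAE and 9.84 in C6FAE, so that CFAE exceeded C6AE before the column medians were subtracted. The first 3 regions outside were chr7:83921781-83922705, chr1:88397708-88402541 and chr3:69159682-69160927, each with a score of 0.261. At the first of them the RPKM was 19.1 to 24.4 without Forskolin and 17.7 to 21.1 with it. Nothing in the scores separates the regions just inside from those just outside.

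The single libraries were read through their own peak lists. At the authors' p-value limit of 0.05 MACS listed from 191181 to 523278 peaks per ATAC-seq library, and total tags ranged from 3346418 to 8764791. A strong peak is taken here as one of the 20000 peaks of lowest p in its library, a limit at a -log10 p of 2.49 to 3.21. Each library also fed its treatment's column, so the shares below describe how far it showed the rule.

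Strong peaks covered the 500 regions more often in each library without Forskolin than in any library with it. In replicates 1 and 2 the share of the 500 regions with a strong peak was 48.0% and 33.8% in AE, 42.6% and 43.0% in Basal, 30.0% and 21.8% in Ctr, and 20.0% and 18.4% in C6AE. With Forskolin it was 12.6% and 15.0% in CFAE, 10.4% and 6.60% in C6FAE, and 6.00% and 11.2% in 6FAE. The mean was 32.2% ± 11.5 (SD, n = 8 libraries of 4 treatments) without and 10.3% ± 3.48 (SD, n = 6 libraries of 3 treatments) with Forskolin. The ranges did not overlap. Each SD also holds the differences between treatments of a side. Over all regions the means were 31.9% and 39.4%, so without Forskolin the 500 regions were on average close to all regions. AE replicate 1, both Basal libraries and Ctr replicate 1 were above all regions, and AE and Ctr replicate 2 slightly below. C6AE was below in both replicates, where all regions had 32.0% and 21.2%. All 6 libraries with Forskolin were below, with 47.4% and 35.2% of all regions in C6FAE. By the limit on the listed q used further below, the ranges overlapped, at 1.2% to 19.2% without and 0.2% to 10% with Forskolin.

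**Figure D3:**
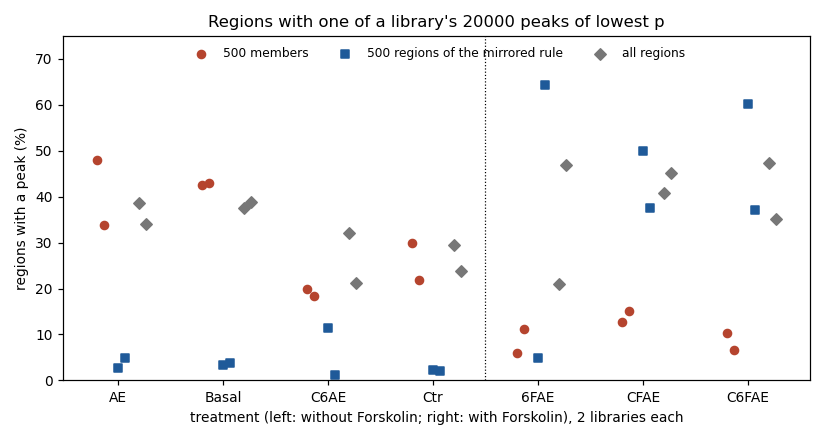
Share of regions with a strong peak (vertical axis, %) in each of 14 ATAC-seq libraries, by treatment, for the 500 regions, for the 500 regions of the mirrored rule and for all regions; each point is a library. The 500 regions lie between 18.4% and 48.0% without Forskolin and between 6.00% and 15.0% with it, and the mirrored regions at 3.93% on average without it.

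Weak peaks were still listed at most of the 500 regions under Forskolin. How often lists of this size meet stretches of this length elsewhere in the genome was not tested. Any listed peak covered 85.7% of the 500 regions on average without Forskolin and 67.5% with it, against 81.3% and 88.5% of all regions. The sides overlapped by this count, since CFAE replicate 1 had a listed peak at 80.8% of them and C6AE replicate 2 at 71.4%. At 149 of the 500 regions a peak was listed in all 14 libraries, a smaller share than the 15180 of all 35931 regions. At 32 regions (6.40%, against 0.55% of all regions) a peak was listed in none of the 6 libraries with Forskolin. The enrichments were low on both sides: the median fold enrichment of the listed peaks ranged from 2.12 to 2.83 over the libraries without Forskolin and from 2.04 to 2.57 over those with it. Over all regions the medians were low too, at 2.23 to 2.78 without and 2.19 to 3.02 with Forskolin.

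The number of libraries without Forskolin that had a strong peak varied among the 500 regions. A strong peak was in 1 of the 8 libraries at 38.4% of them (27.2% of all regions), in 2 at 22.6% (13.5%), in 3 at 14.2% (8.80%), in 4 at 8.60% (6.58%) and in all 8 at 2.60% (6.94%). In the libraries with Forskolin, 357 of the 500 regions (71.4%, against 22.4% of all regions) had no strong peak. The share of libraries with a strong peak was larger without Forskolin at 470 regions, larger with it at 20 and equal at 10, where over all 35931 regions the counts were 12370, 19997 and 3564. At 33 of the 500 regions a strong peak was in at least 4 of the 8 libraries without Forskolin and in 0 of the 6 with it, a pattern that 0.632% of all regions showed. With every listed peak counted, 23 of the 500 regions and 0.17% of all regions had it. The 33 regions were 606 to 3775 bp long, and 0 of them overlapped an H3K4me3 or an H3K27me3 region.

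In 4 of those 33 regions, named after their values were seen, at least 6 libraries without Forskolin had a strong peak. At chr5:3787290-3788701, 1412 bp long, the fold enrichment in replicates 1 and 2 was 3.93 and 4.61 in AE, 2.43 and 3.30 in Basal, 2.56 and 2.66 in C6AE, and 2.80 and 2.61 in Ctr. With Forskolin it was 2.1 and 2.66 in CFAE, and it was 2.69 in C6FAE replicate 1 and 1.93 in 6FAE replicate 2, while C6FAE replicate 2 and 6FAE replicate 1 had no listed peak. The strongest library with Forskolin thus reached the weaker ones without it. RPKM of this region was 23.5 in AE, 11.9 in C6AE, 12.6 in Basal and 14.8 in Ctr, and 5.6 in 6FAE, 9.24 in CFAE and 7.43 in C6FAE.

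At chr2:129458505-129460816 a peak was listed in all 14 libraries, at fold enrichments of 2.52 to 3.98 without Forskolin and 1.79 to 2.59 with it. Its RPKM was 26.8 in AE, 12.5 in C6AE, 23.2 in Basal and 22.9 in Ctr, and 8.75 in 6FAE, 13.5 in CFAE and 5.51 in C6FAE. At chr15:97878344-97880223 the fold enrichment was 2.18 to 3.56 in the 8 libraries without Forskolin, and 1.88 to 2.18 in the 3 libraries with Forskolin that had a listed peak. At chr8:71431042-71433300 it was 2.05 to 3.13 without Forskolin and 1.82 to 2.90 in 4 libraries with it. In all 4 regions the ranges with and without Forskolin met or overlapped.

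How the regions of the table were chosen is not given in the sources used here. The start and the end of 360 of the 500 regions (72.0%) were exactly those of a listed peak in a library without Forskolin, against 22.2% of all regions. For 9 regions (1.80%) they were those of a peak in a library with Forskolin, against 32.2% of all regions, and 131 regions had the edges of no single peak. AE replicate 1 gave 91 of these regions, Basal replicate 2 gave 82, Basal replicate 1 gave 66, and C6AE replicate 1 gave 4. All 10 regions of highest score had the edges of a peak in 1 library without Forskolin. In the whole table, regions with the edges of a library without Forskolin had a median difference (mean without minus mean with Forskolin) of 0.42 on the centred log2 scale, and those with the edges of a library with Forskolin had -0.22. The part of these edges in the score was not tested.

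With the library that gave the edges left out, the 360 regions had a strong peak in 12.8% of readings in the other 7 libraries without Forskolin and in 3.89% of readings in the 6 with it. The 7962 regions of the table with edges from such a library had 9.96% and 9.0%. The 131 regions with the edges of no single peak, with a median length of 1731 bp against 865 bp for the 360, had a strong peak in 55.3% of readings without Forskolin and 27% with it, where the 16413 regions of that kind in the table had 51.3% and 62.8%. In both groups the gap lay mostly in the libraries with Forskolin. Their median difference without minus with Forskolin was 1.12 for the 360 and 0.85 for the 131 regions.

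Since the merged table has no libraries, the pattern was read a further time with regions chosen in the libraries of one replicate number and read in those of the other. Regions with a strong peak in at least 3 of the 4 replicate 1 libraries without Forskolin and in 0 of the 3 with it numbered 383, of which 34 were among the 500. In replicate 2 a strong peak was found again at 54.3% of them in Basal, 49.1% in AE, 26.9% in Ctr and 14.1% in C6AE, against 38.8%, 34.1%, 23.8% and 21.2% of all regions. With Forskolin it was found at 49.9% in CFAE, 42.3% in 6FAE and 18.8% in C6FAE, against 45.1%, 46.8% and 35.2% of all regions. AE, Basal and Ctr were thus above all regions, C6AE was below, and of the treatments with Forskolin C6FAE and 6FAE were below and CFAE was above.

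The reverse choice, in replicate 2, gave 163 regions, of which 19 were among the 500. In replicate 1 a strong peak was found at 50.3% of them in AE, 47.2% in Basal, 35.0% in Ctr and 22.7% in C6AE, against 38.5%, 37.6%, 29.5% and 32.0% of all regions. With Forskolin it was found at 30.7% in C6FAE, 27% in CFAE and 18.4% in 6FAE, against 47.4%, 40.7% and 21.1% of all regions. The mean over libraries was 38.8% without and 25.4% with Forskolin here, and 36.1% and 37.0% for the first choice. C6AE lay below all regions both times. With all listed peaks in place of strong ones, the choice in replicate 1 gave 104 regions, with a peak in replicate 2 at 51.0% on average without and 42.6% with Forskolin, against 79.6% and 88.5% of all regions. The choice in replicate 2 gave 205 regions, with 54.4% and 54.1%, against 82.9% and 88.4% of all regions. All 7 treatments were then below all regions in both choices. The raw difference in means between the sides thus changed with the replicate number and the kind of peak. The shares of all regions also differed between the sides. For strong peaks chosen in replicate 1, the mean minus that of all regions was 6.63 points without and -5.37 with Forskolin. Chosen in replicate 2, it was 4.39 and -11.1 points. For all listed peaks it was -28.7 and -45.9 points when chosen in replicate 1, and -28.5 and -34.3 points when chosen in replicate 2. Set against all regions, the side with Forskolin was the lower one in each of these readings.

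**Figure D4:**
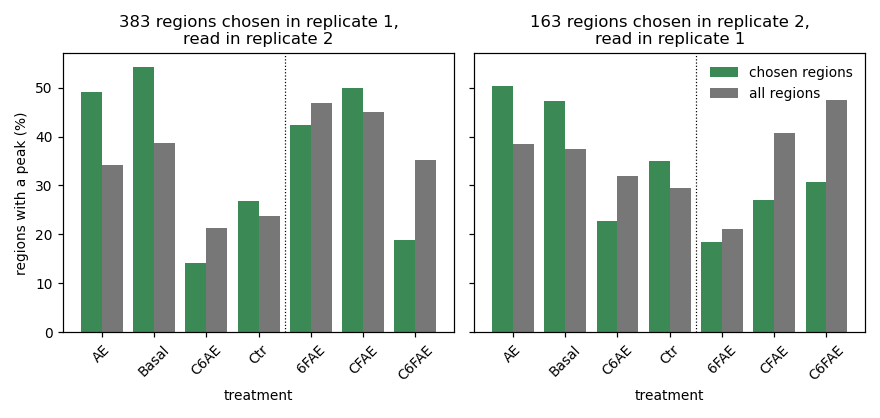
Share of regions with a strong peak (vertical axis, %) by treatment, for regions chosen in one replicate number as having a strong peak in at least 3 of 4 libraries without Forskolin and none with it, read in the other replicate number (green), beside all regions (grey). C6AE, without Forskolin, is below all regions in both panels, at 14.1% and 22.7%, and C6FAE, with Forskolin, is below them at 18.8% and 30.7%.

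The chemicals other than Forskolin were compared at the 500 regions within each side. The rule does not set these treatments against each other directly, but its score used the same values. A single low column without Forskolin, or a single high column with it, lowers the score. The counts below are therefore not independent of the choice of the regions. AE was at least 2-fold higher than Basal on the centred scale at 20 of the 500 regions and at least 2-fold lower at 18, where 3.77% and 7.31% of all regions passed these limits. Basal was higher than Ctr at 13 and lower at 35, against 8.01% and 7.05% of all regions. C6AE was higher than AE at 19 and lower at 22, against 10.4% and 6.67% of all regions, and its median difference from AE was -0.13 where that of all regions was 0.03.

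Among the treatments with Forskolin, C6FAE was at least 2-fold higher than CFAE at 11 regions and lower at 26, where the limits were passed by 4.28% and 4.84% of all regions. C6FAE was higher than 6FAE, which lacks C, at 5 regions and lower at 40, against 3.58% and 6.59% of all regions. CFAE was higher than 6FAE at 7 regions and lower at 19, against 2.84% and 5.22% of all regions. The median difference of C6FAE and 6FAE was -0.18 at the 500 regions and -0.01 over all regions. Counting any of the 6 pairs in either direction, 159 of the 500 regions (31.8%) differed at least 2-fold within a side, against 39.8% of all regions. This count was 14 with a pseudocount of 10 and 98 with the lower quartile of RPKM left out, and it was 257 for the regions chosen without Ctr and Basal.

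The 500 regions were short, and most overlapped no H3K4me3 or H3K27me3 region. Their median length was 1008 bp (95% order-statistic interval 955 to 1081 bp), against 1102 bp for the mirrored regions and 1484 bp for all regions. Under 1 kb were 246 of them (49.2%, against 32.8% of all regions). The shortest, chr8:85419347-85419847, was 501 bp long and had an RPKM of 14.4 in Ctr and 3.04 to 6.42 in the other treatments. The longest, chr2:32728496-32738858, was 10363 bp long and overlapped an H3K4me3 region. Its RPKM was 25.8 in AE, 16.3 in C6AE, 19.9 in Basal and 19.7 in Ctr, and 14.7 in 6FAE, 19.3 in CFAE and 18.5 in C6FAE, and a strong peak was in 5 of 6 libraries with Forskolin.

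H3K4me3 regions overlapped 34 of the 500 regions (6.80%, 95% Wilson interval 4.91 to 9.35), 3.20% of the mirrored regions and 30.9% of all regions. Shorter regions overlap fewer marks, and the share was lower within each class of length too. Under 1 kb it was 4 of 246 regions (1.63%, against 5.52% of all regions of that length), from 1 to 2 kb it was 6 of 172 (3.49%, against 21.1%), and from 2 kb on it was 24 of 82 (29.3%, against 60.5%). In the class from 2 kb on, the mirrored regions had 7.62%. The median distance to the nearest H3K4me3 region was 41.9 kb, against 79.9 kb for the mirrored and 21.1 kb for all regions. H3K27me3 regions overlapped 18 of the 500 regions (3.60%, interval 2.29 to 5.62), 5.80% of the mirrored regions and 9.38% of all regions. Neither mark was present at 450 of the 500 regions (90.0%, against 92.2% of the mirrored and 64.0% of all regions), and both were present at 2. Regions are not replicates, and the intervals cover only how many there are.

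**Figure D5:**
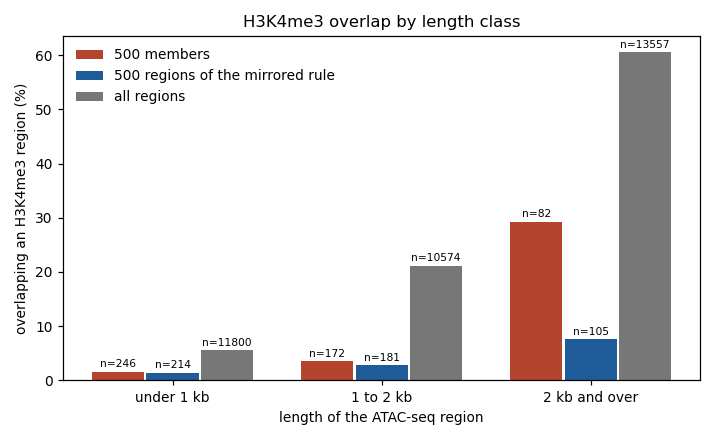
Share of regions that overlap an H3K4me3 region (vertical axis, %) in 3 classes of length, for the 500 regions, the 500 regions of the mirrored rule and all regions, with the number of regions over each bar. From 2 kb on, the share is 29.3% for the 500 regions, 7.62% for the mirrored regions and 60.5% for all regions.

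The 500 regions were scattered. Within 50 kb of another of them lay 16, as 8 pairs and no larger cluster, and 18 of the mirrored regions had such a neighbour. The pair of highest score was at chr16:90218075-90222309, where 2 of the 500 regions lay within 4.24 kb. Regions near the 500 that were not among them leaned the same way by a small amount. The 255 regions within 10 kb had a median difference (without minus with Forskolin) of 0.12 on the centred log2 scale (95% order-statistic interval 0.05 to 0.18), against 0.03 over all regions. From 10 to 50 kb it was 0.06 over 960 regions, and from 50 to 200 kb it was 0.04 over 3250 regions. Around the mirrored regions the medians at these distances were -0.05, -0.03 and -0.01. Close neighbours are no independent samples.

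H3K4me3 was measured in cells of the same treatments by another assay, which the rule did not use. At the 34 H3K4me3 regions that overlap the 500 regions, median RPKM was 18.6 in AE, 21.7 in C6AE and 17.7 in Basal, and 10.3 in 6FAE, 14.8 in CFAE and 10.0 in C6FAE. All H3K4me3 regions had nearly the same order, with 18.9 in AE, 24.9 in C6AE and 17.9 in Basal, and 11.2 in 6FAE, 15.8 in CFAE and 11.5 in C6FAE. After the column medians were subtracted, the mean with Forskolin minus the mean without it had a median of -0.11 (95% order-statistic interval -0.18 to -0.04) over the 34 regions, with 25 of 34 (73.5%) below 0. It was 0.01 over H3K4me3 regions that overlap any ATAC-seq region of the table, with 48.0% below 0. Of the 34, 0 passed 2-fold. The size cannot be set against that of ATAC-seq, whose values chose the regions and included Ctr. The median H3K4me3 difference was -0.05 without the AE library, -0.04 without Basal and -0.07 without C6FAE, and -0.75 where the column medians were not subtracted. With the column medians subtracted, all 3 libraries with Forskolin were below all 3 without in 1 of 34, where 7.62% of all H3K4me3 regions showed this. There is 1 library per treatment, and the C6AE library had 745089 tags, the fewest for this mark, so no test was made.

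The best-ranked of the 500 regions with H3K4me3, at rank 36, was chr8:36654342-36654893, inside an H3K4me3 region of 6834 bp. H3K4me3 RPKM there was 19.4 in AE, 21.1 in C6AE and 17.7 in Basal, and 7.32 in 6FAE, 10.2 in CFAE and 5.56 in C6FAE, a centred difference of -0.62. The next 4 were chr10:80887116-80888890 with a centred H3K4me3 difference of -0.22, chr10:92767827-92769920 with 0.04, chr11:16951704-16953596 with -0.39 and chr7:4099773-4103237 with -0.13. They lay on both sides of 0, and the first was the farthest from it.

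At the 18 H3K27me3 regions that overlap the 500 regions, median H3K27me3 RPKM was 6.44 in AE, 6.4 in C6AE and 5.84 in Basal, and 4.72 in 6FAE, 3.45 in CFAE and 3.16 in C6FAE. The centred difference, with minus without Forskolin, had a median of -0.18 (interval -0.31 to 0.07), with 12 of 18 (66.7%) below 0. H3K27me3 regions that overlap any ATAC-seq region had -0.10, with 61.4% below 0, and the interval of the 18 regions holds that value. Without the AE library the median was -0.08 and without 6FAE it was -0.11, and with no subtraction of the column medians it was -0.73. With the column medians subtracted, the 3 libraries with Forskolin were below the 3 without in 1 of 18, against 6.37% of all H3K27me3 regions. The H3K27me3 RPKM at chr2:170234564-170235139, the region at rank 8, was 5.20 in AE, 5.36 in C6AE and 4.86 in Basal, and 3.94 in 6FAE, 3.33 in CFAE and 3.21 in C6FAE, a centred difference of 0.10. The others named by rank were chr5:120768789-120769453 with -0.24, chr11:103641506-103642043 with -0.16, chr9:44247447-44248117 with -0.55 and chr9:97066948-97067536 with 1.21. At the last the 6FAE library, the shallowest for this mark with 633980 tags, had an RPKM of 9.15 where the other treatments had 0.27 to 1.40.

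The single-library lists of H3K27me3 followed the libraries more than the regions. A listed H3K27me3 peak covered 233 of the 500 regions in C6FAE, 108 in 6FAE, 95 in AE, 73 in CFAE, 65 in C6AE and 37 in Basal. Over all regions the shares moved in a like way, from 50.9% in C6FAE to 15.3% in Basal. At 1.3 or more for the listed -log10 q the count was 17 in C6AE (3.40%, against 6.46% of all regions). It was 8 in AE (1.60%, against 5.16%) and 5 in Basal (1.00%, against 3.97%). In each library with Forskolin it was 0, where at most 0.09% of all regions had such a peak. An H3K4me3 peak at this limit covered 48 to 69 of the 500 regions in the 6 libraries, with 62 in AE, 49 in C6AE and 67 in Basal, and 48 in 6FAE, 69 in CFAE and 51 in C6FAE. Over all regions the shares in these libraries were 33.7% to 40.2%. Both sides overlapped in this count.

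Membership depended on single columns. With any of the 7 columns left out of the score, 212 to 346 of the 500 regions were kept, with the fewest when 6FAE was left out and the most when Basal was. With Ctr and Basal left out, so that all treatments compared have A and E in their names, 219 were kept. With column medians not subtracted, 310 were kept. The overlap with H3K4me3 moved with it, from 34 regions to 10 without C6AE, 11 without 6FAE, 17 without AE, 19 without Ctr and 21 without CFAE, and to 43 without Basal or C6FAE. The overlap with H3K27me3 went from 18 to 34 regions without AE. Each of these counts stayed below the share of all regions that overlapped the mark.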

How the data were processed

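ATAC-seq and ChIP-seq libraries of mouse embryonic fibroblasts at day 4 were analysed from the deposited tables and peak lists. The submitters' processing notes name Bowtie2, MACS2, deepTools 3.1.0 and mm9. Per the file headers, the authors called peaks with MACS 2.1.2 at a p-value of 0.05 without local background, with tags extended to 250 bp and 1 tag per position, broad for ATAC-seq and H3K27me3, narrow and against input for H3K4me3. The deposited lists give -log10 p, -log10 q and fold enrichment, a ratio to the modelled background, and pileup signal was not used. The headers say that q was not calculated, so limits on q rest on the column as listed. RPKM tables were deposited by the authors with 1 column per treatment, merged over libraries for ATAC-seq. The rule was applied as stated, with a pseudocount of 1.

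The regions and lists were chosen with earlier results of these data known. Named regions were the 10 of highest score, 3 on either side of the limit, the top pair, up to 5 per mark, and the longest and shortest. Overlap meant at least 1 bp. Replicate libraries are numbered in the labels, and the study's methods call those of Ctr and C6FAE biological. Regions chosen in one replicate number were read in the other, with strong and with all listed peaks. No test was made, since merged columns and single ChIP-seq libraries have no replicates. Input libraries were not used. Gene lists and motifs were not analysed here. The functions were tested on simulated data. Tools were matplotlib 3.10.9, scipy 1.17.1, pandas 2.3.3 and numpy 2.4.6 in Python 3.11.15. Intervals cover counting error only.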

Additional observations from a re-analysis of the deposited data

How the results depend on the processing

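Of the alternatives, 69 values stayed within the limits set for them and 41 moved, with 0 changes of sign. The raw means of the replicate reading did turn. Without and with Forskolin they were 36.1% and 37.0% as reported, and 51.0% and 42.6% for listed peaks. They were 38.8% and 25.4% when chosen in replicate 2. Set against the means of all regions, the side with Forskolin was the lower one each time. Without centring, 310 regions were kept, the median score was 0.10, 30 regions overlapped H3K27me3, 27 were near another, and the mark differences were -0.75 for H3K4me3 and -0.73 for H3K27me3. Centring on the 10% most open regions gave a median score of 0.34, a pseudocount of 0.1 gave 0.44, and a pseudocount of 10 gave 0.24 with 14 regions past 2-fold within a side. Leaving out the lower quartile of RPKM kept 330 regions, with a median score of 0.32, a median length of 1241 bp, 69 overlaps with H3K4me3 and 98 regions past 2-fold within a side. Leaving out Ctr and Basal kept 219, with a score of 0.68, a length of 835 bp, 17 overlaps with H3K4me3 and 257 past 2-fold. Leaving out each column in turn, chosen after seeing the data, kept 212 to 346 regions, with 10 to 43 overlaps with H3K4me3 and 17 to 34 with H3K27me3. Leaving out each ChIP-seq library gave -0.13 to -0.04 for H3K4me3 and -0.22 to -0.08 for H3K27me3. H3K4me3 peaks of any library with a listed -log10 q from 1.3 up covered 116 regions, against 47.4% of all regions. Neighbours within 10 kb numbered 6, and within 200 kb 54. The share with a peak was 85.65% without and 67.5% with Forskolin for listed peaks, and 9.35% and 5.53% at that q. With 1 replicate number the shares for strong peaks were 29.25% to 35.15% without and 9.67% to 10.9% with Forskolin. The peak only without Forskolin was found at 2 regions at that q (0.04% of all regions), and at 80 to 114 with 1 replicate number and at least 2 of 4 libraries required (2.96% to 4.97% of all regions). The cause of these moves was not tested. No paired analysis was possible because no result here comes from a test: the merged columns carry no replicates, and the numbered libraries were read only as shares of regions. Peaks at that q numbered 810 to 15909 per ATAC-seq library, and depth also differed among the libraries. The part of depth in these numbers was not tested.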

Other observations

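The ChIP-seq libraries whose labels disagree on their treatment had a median RPKM of 22.3 at the 34 H3K4me3 regions and 6.99 at the 18 H3K27me3 regions that overlap the 500 regions. They are values of unknown condition and entered no comparison. On chromosome X, which the rule left out, 3 of 498 regions (0.60%) reached the score of the 500th region, against 1.39% of the regions on chromosomes 1 to 19.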
